A study of Mus musculus with 2 samples.

Results

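Mast cell genes were followed in GFP+ cells of the stromal vascular fraction, what collagenase digestion of inguinal white fat leaves once the buoyant fat cells are gone, in mice. The set was 10 genes chosen by name, Kit, Cpa3, Mcpt4, Cma1, Tpsb2, Tpsab1, Fcer1a, Ms4a2, Hdc and Gata2, of which 9 are among the 24862 genes of the deposited table and Tpsab1 is not listed. RNA sequencing compared 1 library from Sox9 floxed mice with 1 library from Sox9 PreASKO mice (KO in the sample titles). All mice were males 3 weeks old, and both groups had received doxycycline at postnatal day 1. The series' design text equates GFP+ with Pref-1+ cells, Pref-1 being the product of Dlk1 on early adipose precursors, and gives a pool of 6 mice without saying whether that is per genotype. The labels do not name the driver of GFP or of the deletion. With 1 pooled library per genotype there is no replicate check and no test between genotypes.

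Mast cells are tissue-resident immune cells that arise from haematopoietic progenitors, depend on the receptor tyrosine kinase Kit and its stromal ligand, and lie along vessels in connective tissue, fat included. Their granules hold chymases, tryptases and carboxypeptidase A3 bound to a serglycin and heparin matrix, with histamine made by histidine decarboxylase. IgE held by the high-affinity receptor triggers release when antigen cross-links it. In bulk RNA, fewer cells of a type and less RNA per cell cannot be told apart.

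The libraries held 37705236 counts for floxed and 29172653 for PreASKO. Levels are given in CPM, counts scaled to library totals of equal size. Values in parentheses after a level or ratio are exact 95% intervals that cover counting error alone. Sox9, the targeted gene, had 228 counts in the floxed and 73 in the PreASKO library, a ratio of 0.414 (0.313 to 0.541). Its counts run over the whole gene, so this is a partial check of the deletion. A macrophage list of 13 genes, 12 of them listed and all 12 higher in PreASKO, summed to 12650 CPM in floxed and 18983 CPM in PreASKO cells, while 14 of 14 stromal matrix genes were lower, with sums of 48396 and 28031 CPM. Of all genes with 10 or more counts in a library, 45.8% were higher in PreASKO. The macrophage values moved in the direction of the mast cell sum on library totals and the stromal matrix values against it. The part of either list in the mast cell results was not tested. Ratios were therefore also computed with both libraries scaled to either list.

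Promoters from RefSeq (build GRCm38.p6), each 250 bases before to 50 after the transcription start, matched 8 of the 10 genes in 10 windows. Tpsb2 and Tpsab1 had no entry. Shown are the windows of Mcpt4 and Cma1, chymase genes of the same cluster with the largest protease counts, of Cpa3, and of Ms4a2, whose RNA was barely detected. Capitals mark AGATAA or its reverse complement TTATCT, a form of the site that GATA factors such as Gata2 bind, and TATAAA or TTTATA. Other forms of the GATA site were not searched for and are not marked.
Mcpt4 (chr14:56062261-56062560, minus strand): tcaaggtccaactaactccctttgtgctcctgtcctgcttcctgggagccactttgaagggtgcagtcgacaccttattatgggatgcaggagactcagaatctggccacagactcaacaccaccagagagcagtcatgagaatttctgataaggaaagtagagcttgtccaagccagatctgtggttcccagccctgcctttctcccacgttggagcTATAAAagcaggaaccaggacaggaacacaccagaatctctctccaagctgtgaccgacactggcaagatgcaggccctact
Cma1 (chr14:55944626-55944925, minus strand): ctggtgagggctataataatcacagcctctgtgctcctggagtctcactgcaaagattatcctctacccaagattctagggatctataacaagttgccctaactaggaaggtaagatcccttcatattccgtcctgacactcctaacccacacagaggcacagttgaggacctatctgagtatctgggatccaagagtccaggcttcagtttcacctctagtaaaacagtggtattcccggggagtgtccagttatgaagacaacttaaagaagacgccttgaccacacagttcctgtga
Cpa3 (chr3:20242132-20242431, minus strand): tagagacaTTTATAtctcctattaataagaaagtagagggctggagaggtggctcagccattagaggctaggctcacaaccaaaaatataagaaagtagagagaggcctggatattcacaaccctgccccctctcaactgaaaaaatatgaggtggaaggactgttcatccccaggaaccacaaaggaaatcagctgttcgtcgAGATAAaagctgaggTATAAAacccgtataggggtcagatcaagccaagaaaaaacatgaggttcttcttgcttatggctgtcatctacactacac
Ms4a2 (chr19:11623670-11623969, minus strand): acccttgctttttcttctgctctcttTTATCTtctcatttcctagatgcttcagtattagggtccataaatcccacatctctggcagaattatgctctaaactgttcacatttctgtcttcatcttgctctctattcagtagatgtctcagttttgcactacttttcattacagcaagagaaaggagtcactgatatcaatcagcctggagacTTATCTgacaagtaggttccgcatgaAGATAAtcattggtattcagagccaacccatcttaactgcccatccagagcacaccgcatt
The GATA letters stood 46 bases before the start in Cpa3, 92 bases before it in Fcer1a, and 224, 37 and 11 bases before it in Ms4a2. These letters were in none of the windows of Mcpt4, Cma1, Hdc, Kit and Gata2, where other forms of the site were not searched for. On either strand 11.2% of all 32851 promoter windows of that length held them, and 12.7% of 27025 genes had such a window. The TATA letters stood 32 bases before the start in Mcpt4, 31 and 242 bases before it in Cpa3 and 125 bases before it in Fcer1a. They were in 13.6% of all windows and in a window of 15.7% of all genes. CATGTG or CACATG, an E-box that Mitf can bind, was in 1 of the 8 genes, Fcer1a, beside 15.9% of all genes and 14.2% of all windows. No match overlapped another in these windows.

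The granule chymases carried the largest part of the mast cell signal. Mcpt4, mast cell protease 4, a chymase of connective tissue mast cells (gene ID 17227, chromosome 14, 56059744 to 56062310, GRCm38), had 657 counts in the floxed and 602 in the PreASKO library. That is 17.4 CPM (16.1 to 18.8) and 20.6 CPM (19.0 to 22.4), a ratio of 1.18 (1.06 to 1.32), or 0.789 when scaled to the macrophage list. Cma1, mast cell chymase 1, also called Mcpt5 (gene ID 17228, chromosome 14, 55941451 to 55944675), had 242 and 357 counts. In CPM it stood at 6.42 (5.63 to 7.28) in floxed and at 12.2 (11.0 to 13.6) in PreASKO cells. The PreASKO over floxed ratio was 1.91 (1.61 to 2.25). The intervals of the floxed and PreASKO levels do not overlap for either chymase. Within a library, which needs no scaling, there were 0.368 Cma1 counts for each Mcpt4 count in floxed and 0.593 in PreASKO cells. All counts of both genes were raw counts, and 5.48% of the 50-base words in Mcpt4 transcripts also occur in Cma2 or Mcpt9, and 5.38% of those in Cma1 occur in the predicted gene Gm48934, so the source of reads over these words is uncertain.

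The other listed granule proteases, Cpa3 and Tpsb2, differed little on library totals. Cpa3, carboxypeptidase A3 (gene ID 12873, chromosome 3, 20215616 to 20242209), had 99 and 81 counts, which is 2.63 CPM (2.13 to 3.20) in floxed and 2.78 CPM (2.20 to 3.45) in PreASKO cells. Its ratio was 1.06 (0.779 to 1.43). Its 13 and 23 raw counts alone gave a ratio of 2.36 and its 86 and 58 repeat-distributed counts alone pointed the other way. The value given for Cpa3 is that of both kinds summed, as for every gene. Tpsb2, a tryptase also called Mcpt6 (gene ID 17229, chromosome 17, 25366308 to 25368096), had 77 and 67 counts, at 2.04 CPM (1.61 to 2.55) and 2.30 CPM (1.78 to 2.92). Its ratio was 1.12 (0.798 to 1.58). Counting error alone spans equal levels for both genes on library totals. The ratios of Cpa3 and Tpsb2 were 0.705 and 0.749 when scaled to the macrophage list and 1.83 and 1.94 when scaled to the stromal matrix list. Tpsab1, the tryptase gene called Mcpt7, is annotated in RefSeq as a transcribed pseudogene at 25343245 to 25345562 of chromosome 17, and no value is given for it. No 50-base word of the Tpsb2 transcripts occurs in transcripts of another gene in GENCODE M21, Tpsab1 included. The 4 listed proteases summed to 1075 and 1107 counts, at 28.5 and 37.9 CPM, a ratio of 1.33 (1.22 to 1.45).

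**Figure D1:**
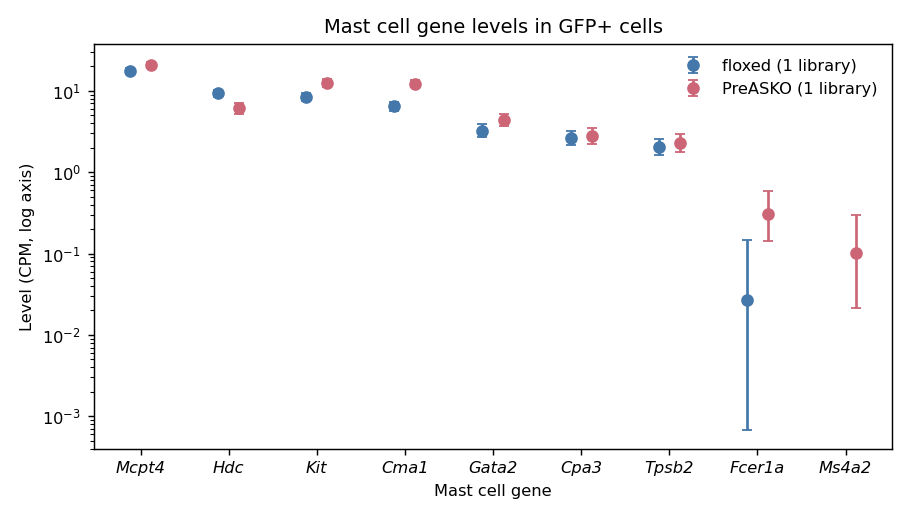
Level of each of the 9 listed mast cell genes in CPM on a log axis, with exact 95% Poisson intervals, for the floxed (blue) and PreASKO (red) library. Mcpt4 is highest in both, Hdc is the one gene with 10 or more counts that is lower in PreASKO on this scale, and the floxed point of Ms4a2 is missing because its count was 0.

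The chymase genes lie in a cluster of granule protease genes on chromosome 14, of which 15 RefSeq protease genes between Cma1 and Gzmb were examined, a span chosen after values were seen. Of these, 10 are listed in the table and 7 had 10 or more counts in a library. Between Cma1 and Mcpt4, the genes Mcpt1, Mcpt2 and Mcpt9, proteases best known from mucosal and uterine mast cells, had 5, 5 and 7 counts in floxed and 5, 1 and 4 in PreASKO cells. Cma2, the neighbour of Cma1, had 10 and 3. On the other side of Mcpt4, the basophil protease gene Mcpt8 had 0 counts in floxed and 19 in PreASKO cells. That is 8.19-fold higher if 3 counts stand in place of 0 in the floxed library, and the lower limit of the exact interval was 6.03-fold. The cathepsin G gene Ctsg, a protease of neutrophils and some mast cells, went the other way, with 76 and 17 counts and a ratio of 0.289 (0.160 to 0.494). The granzyme genes Gzmc and Gzmb, of cytotoxic lymphocytes and some mast cells, had 1 and 36 and 1 and 10 counts, with ratios of 46.5 (7.84 to 1888) and 12.9 (1.84 to 561). Thus genes within 321 kb of each other differed in both directions. On chromosome 17, the basophil tryptase gene Prss34, near Tpsb2, had 0 counts in floxed and 8 in PreASKO cells.

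**Figure D2:**
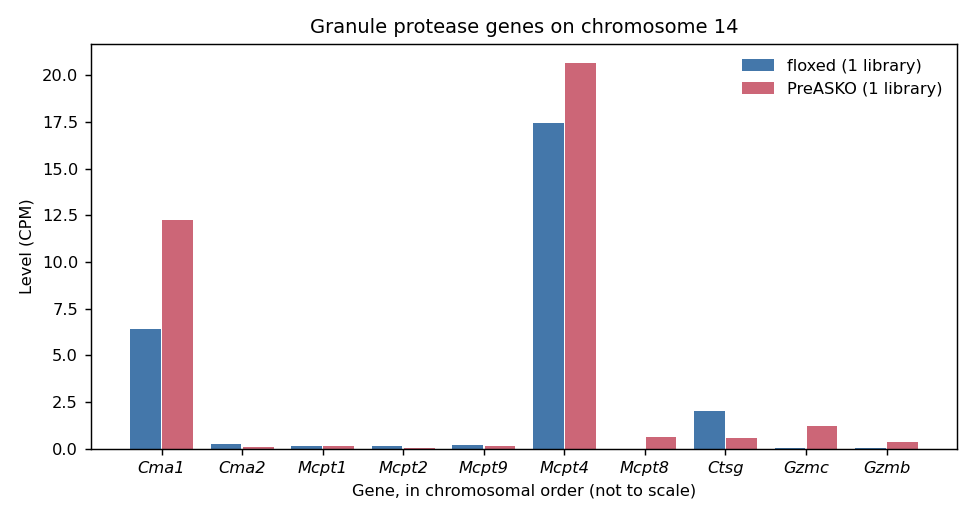
Levels in CPM (bars, from 0) of the 10 listed granule protease genes on chromosome 14, in chromosomal order, in the floxed (blue) and PreASKO (red) library. Mcpt4 and Cma1 stand above all others in both libraries, Ctsg is higher in floxed cells, and Mcpt8, Gzmc and Gzmb are higher in PreASKO cells, where the floxed counts are 0 or 1.

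The genes of the alpha and beta chains of the high-affinity IgE receptor were close to the detection limit, which at a count of 0 allows up to 3 counts, or 0.0796 CPM in the floxed and 0.103 CPM in the PreASKO library. Fcer1a, the IgE-binding alpha chain (gene ID 14125, chromosome 1, 173221269 to 173227232), had 1 count in floxed and 9 in PreASKO cells, at 0.0265 CPM (0.000671 to 0.148) and 0.309 CPM (0.141 to 0.586). The ratio of 11.6 has an interval of 1.61 to 510. Ms4a2, the signal-amplifying beta chain (gene ID 14126, chromosome 19, 11615517 to 11623790), had 0 and 3 counts, and no fold is given because both libraries are at or under the limit. The authors' deposited table lists folds of 11.6 and 322 for Fcer1a and Ms4a2, which rest on those counts. Fcer1g, the gamma chain that macrophages and other myeloid cells also use, was abundant, with 830 CPM in floxed and 1463 CPM in PreASKO cells and a ratio of 1.76 (1.74 to 1.79).

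Kit, the receptor for stem cell factor (gene ID 16590, chromosome 5, 75574987 to 75656722), had 319 counts in floxed and 363 in PreASKO cells. These counts correspond to 8.46 CPM (7.56 to 9.44) for floxed and 12.4 CPM (11.2 to 13.8) for PreASKO, or 1.47 times the floxed level (1.26 to 1.71). Gata2, a zinc-finger transcription factor of mast cells and haematopoietic progenitors (gene ID 14461, chromosome 6, 88193891 to 88207032), had 122 and 128 counts. Its levels of 3.24 CPM (2.69 to 3.86) and 4.39 CPM (3.66 to 5.22) gave a ratio of 1.36 (1.05 to 1.75). Both genes were thus higher in PreASKO beyond counting error on library totals, but not when scaled to the macrophage list, with ratios of 0.980 and 0.904. Gata2 counts stood in similar proportion to Kit counts, at 0.382 in floxed and 0.353 in PreASKO cells. Nearly all Kit counts and all Gata2 counts were repeat-distributed, with 3 raw counts for Kit in floxed cells. Melanocytes express Kit, as do progenitors, and Gata2 is expressed by endothelial cells and by preadipocytes, in which it restrains fat cell formation. The stromal matrix sums given above were lower in PreASKO. The 9 endothelial markers summed to 761 and 862 CPM, with Cdh5, Pecam1 and Vwf the most abundant at 188, 183 and 117 CPM in floxed and 218, 190 and 198 CPM in PreASKO cells. Of these 9 markers 5 were higher and 4 lower in PreASKO (2 higher when scaled to the macrophage list), beside 45.8% of all genes higher. Tek, Kdr and Emcn had intervals below equal levels, with ratios of 0.655, 0.880 and 0.888. The 7 progenitor genes summed to 27.3 and 24.6 CPM. Of 8 melanocyte markers 6 are listed, and they summed to 3.21 and 5.24 CPM. Of the 4 with enough counts 3 were higher and Tyr lower in PreASKO (2 and 2 when scaled to the macrophage list). The most counted, Pmel, Sox10 and Tyr, had 62, 26 and 25 counts in floxed and 66, 72 and 0 in PreASKO cells. Tyrp1 and Oca2 had 3 and 1 counts in floxed and 0 in PreASKO cells, and Mlana had 4 and 15. How much of the Kit and Gata2 signal came from these cells was not tested.

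Hdc, histidine decarboxylase, the enzyme that makes histamine (gene ID 15186, chromosome 2, 126593659 to 126624025), ran against the rest. It had 351 counts in floxed and 177 in PreASKO cells, at 9.31 CPM (8.36 to 10.3) and 6.07 CPM (5.21 to 7.03). That is 1.53-fold lower in PreASKO (1.28 to 1.85), although its ratio was 1.13 in place of 0.652 when both libraries were scaled to the stromal matrix list. For each Kit count there were 1.10 Hdc counts in floxed and 0.488 in PreASKO cells. All Hdc counts were repeat-distributed, as were nearly all of Kit. For each Cma1 count, all of which were raw, there were 1.45 and 0.496 Hdc counts. Neutrophils and basophils also express Hdc. All 10 neutrophil markers with 10 or more counts, of 12 listed, were higher in PreASKO, beside 45.8% of all genes. The count was 9 of 10 when scaled to the macrophage list or without mitochondrial transcripts, Mpo being the exception. The neutrophil sums were 140 and 290 CPM. Mmp9, S100a9 and Retnlg had the most counts, with ratios of 1.53, 8.66 and 1.71, while Camp and Ngp had ratios of 38.9 and 13.4. The 5 basophil markers summed to 4.91 and 2.37 CPM, with Il4 at 138 and 24 counts, Cyp11a1 at 42 and 17, and Mcpt8 and Prss34 at 0 in floxed cells. These values did not all move with Hdc, and their part in its difference was not tested.

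Of the 7 mast cell genes with 10 or more counts in a library, 6 were higher and 1 lower in PreASKO, beside 45.8% of all 18911 genes higher under the same minimum. Scaled to the macrophage list, however, 1 of the 7 was higher, namely Cma1. That scaling lowers all genes alike. The median log2 ratio was then -0.34 over the 7 genes and -0.65 over all genes. The 95% interval on library totals lay above equal levels for 4 of the 7, Mcpt4, Cma1, Kit and Gata2, beside 33.2% of all genes. It lay below for Hdc, beside 39.9%. On library totals none of the 7 passed the 2-fold limit named in the series' design text in either direction, beside 9.08% of all genes over 2-fold higher and 18.2% over 2-fold lower. Fcer1a and Ms4a2 were below the count minimum. The median log2 ratio was 0.24 over the 7 genes and -0.07 over all genes, whose interquartile range ran from -0.65 to 0.35. Summed over the 9 listed genes, 1868 and 1787 counts came to 49.5 CPM for floxed and 61.3 CPM for PreASKO, and their ratio was 1.24 (1.16 to 1.32), or 0.824 when scaled to the macrophage list. Without Hdc the ratio was 1.37 (1.28 to 1.47), and without Mcpt4 it was 1.26 (1.17 to 1.37), 2 sums chosen after values were seen.

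The makeup of the mast cell signal, which does not depend on scaling, differed beyond counting error at least in Hdc and Cma1. The shares are not independent, since a lower share of Hdc raises those of the other genes. The makeup does set the authors' kinds of count against each other, since the counts of Mcpt4 and Cma1 were all raw, those of Hdc, Gata2 and Tpsb2 all repeat-distributed and those of Kit nearly all so. Cma1 made up 12.96% (11.5 to 14.6) of the 1868 floxed counts and 20.0% (18.1 to 21.9) of the 1787 PreASKO counts, as exact Clopper-Pearson intervals. Hdc made up 18.8% (17.04 to 20.6) and 9.90% (8.56 to 11.4). The intervals of these 2 genes do not overlap between libraries. Kit had shares of 17.1% (15.4 to 18.9) and 20.3% (18.5 to 22.3), whose intervals overlap. Such overlap does not show equal shares. The shares were compared by overlap alone, so a difference in Kit beyond counting error is not excluded. Mcpt4 held 35.2% (33.0 to 37.4) and 33.7% (31.5 to 35.9), Gata2 6.53% and 7.16%, Cpa3 5.30% and 4.53%, and Tpsb2 4.12% and 3.75%, each with overlapping intervals.

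**Figure D3:**
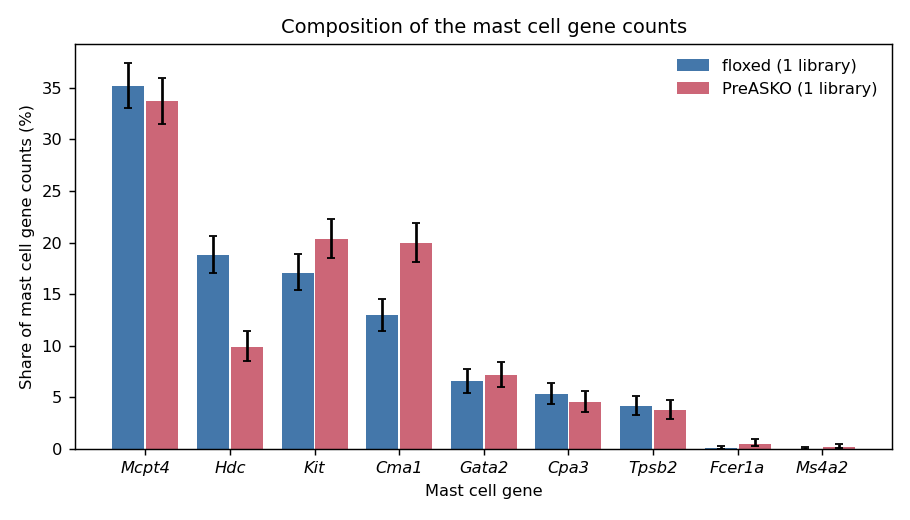
Share of the summed mast cell gene counts held by each gene, in percent with exact 95% binomial intervals, in the floxed (blue) and PreASKO (red) library. The share of Hdc is 18.8% in floxed and 9.90% in PreASKO cells, that of Cma1 12.96% and 20.0%, and Mcpt4 holds about the same largest share in both.

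Per kilobase of annotated exon, Mcpt4 was the most abundant, at 15.7 CPM per kb in floxed and 18.6 in PreASKO cells, followed by Cma1 at 5.89 and 11.2, each apart from the next gene beyond counting error. In floxed cells Cpa3 at 1.73, Hdc at 1.46, Tpsb2 at 1.28 and Kit at 0.949 CPM per kb came next, and each had an interval that overlaps that of its neighbour in this order. Gata2 stood at 0.599 (0.498 to 0.716), apart from Kit at 0.949 (0.848 to 1.06). In PreASKO cells the order was Cpa3 at 1.83, Tpsb2 at 1.44, Kit at 1.40, Hdc at 0.950 and Gata2 at 0.813 CPM per kb. Here Hdc stood apart from Kit and overlapped Gata2. Exon lengths are unions over GENCODE M21 transcripts, and which transcripts these cells use is not known. The alpha and beta chain genes of the IgE receptor came last, at 0.0266 and 0.309 CPM per kb for Fcer1a and 0 and 0.0366 for Ms4a2.

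Other genes of mast cells were listed by role, and the roles were not compared with each other. The lists were chosen with earlier results of these data known, and many of their genes are also active in macrophages. The other granule proteases with enough counts, Gzmb, Ctsg and Cma2, had a median log2 ratio of -1.37, with 1 higher and 2 lower. Among receptors, 4 of 7 with enough counts were higher and 3 were lower, beside 45.8% of all genes higher. The receptor median was 0.70, beside -0.07 over all genes. Scaled to the macrophage list it was 0.11, beside -0.65 over all genes. Over the 5 receptors with enough repeat-distributed counts alone it was -0.20. Il1rl1, the receptor for interleukin 33 on mast cells and other type 2 immune cells, had 267 and 691 counts and a ratio of 3.34 (2.90 to 3.87). Adora3, an adenosine receptor that enhances mast cell degranulation, had 7 and 46 counts and a ratio of 8.49 (3.81 to 22.3). The prostaglandin receptor gene Ptger3 had a ratio of 0.646 (0.457 to 0.904) and the leukotriene receptor gene Cysltr1 one of 0.783 (0.702 to 0.873). Mrgprb2, the peptide receptor of connective tissue mast cells, had 0 and 4 counts.

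In the group of 8 mediator and granule storage genes, PreASKO had the higher level for 7, beside 45.8% of all genes. The median log2 ratio was 0.61. Scaled to the macrophage list, 5 of the 8 were higher and the median was 0.023, beside a median of -0.65 over all genes. Ltc4s, leukotriene C4 synthase, had 71.4 and 147 CPM, and its ratio was 2.05 (1.96 to 2.16). Srgn, the serglycin core protein, had a ratio of 1.55 (1.50 to 1.60) and Alox5, the lipoxygenase that starts leukotriene synthesis, one of 1.60 (1.54 to 1.67). These genes were abundant, at 171 and 116 CPM in floxed cells, and the macrophage sum had a ratio of 1.50 (1.50 to 1.51). Slc18a2, the vesicular transporter that loads histamine, and Hpgds, the haematopoietic prostaglandin D synthase, had ratios of 1.02 (0.800 to 1.30) and 1.10 (0.933 to 1.29). Both intervals span equal levels, and both genes were at levels in the range of the mast cell genes, from 4.16 to 9.53 CPM. Ndst2, which sulfates granule heparin, had a ratio of 0.998 (0.950 to 1.05). Tph1, for serotonin synthesis, had 2 and 5 counts.

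Transcription factor genes split 5 higher to 3 lower, beside 45.8% of all genes higher on library totals. Scaled to the macrophage list they split 2 to 6. Their median log2 ratio of 0.31 was -0.27 when scaled to the macrophage list, where the median over all genes was -0.65. In raw counts alone, where 1 gene was left, the factor median was -0.05. Mitf, the factor that mast cells and melanocytes share, had 652 and 641 counts and a ratio of 1.27 (1.14 to 1.42). Runx1 and Spi1, of many blood lineages, had ratios of 1.54 and 1.56, and Stat5a, which signals below Kit and cytokine receptors, one of 0.842 (0.758 to 0.935). Of 13 listed genes that signal below the IgE receptor and Kit, PreASKO was above floxed for 11 and below for 2, and the median of 0.52 became -0.07, with 6 of 13 higher, when scaled to the macrophage list. The kinase genes Lyn, Syk and Btk had ratios of 1.50, 1.63 and 1.05, and the adaptor genes Lat2 and Grap2 ratios of 1.82 (1.34 to 2.48) and 2.74 (1.94 to 3.94). Of 5 listed ligand genes that act on mast cells 1 was higher and 4 were lower, with a median of -0.56. Scaled to the stromal matrix list, 3 of 5 were higher and the median was 0.23, beside 0.72 over all genes. Kitl, the ligand of Kit, had 309 and 237 counts and a ratio of 0.991 (0.833 to 1.18). The cytokine genes Il33 and Tslp had ratios of 0.679 (0.595 to 0.774) and 0.561 (0.449 to 0.699), and Tgfb1 had a ratio of 1.68 (1.57 to 1.79).

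**Figure D4:**
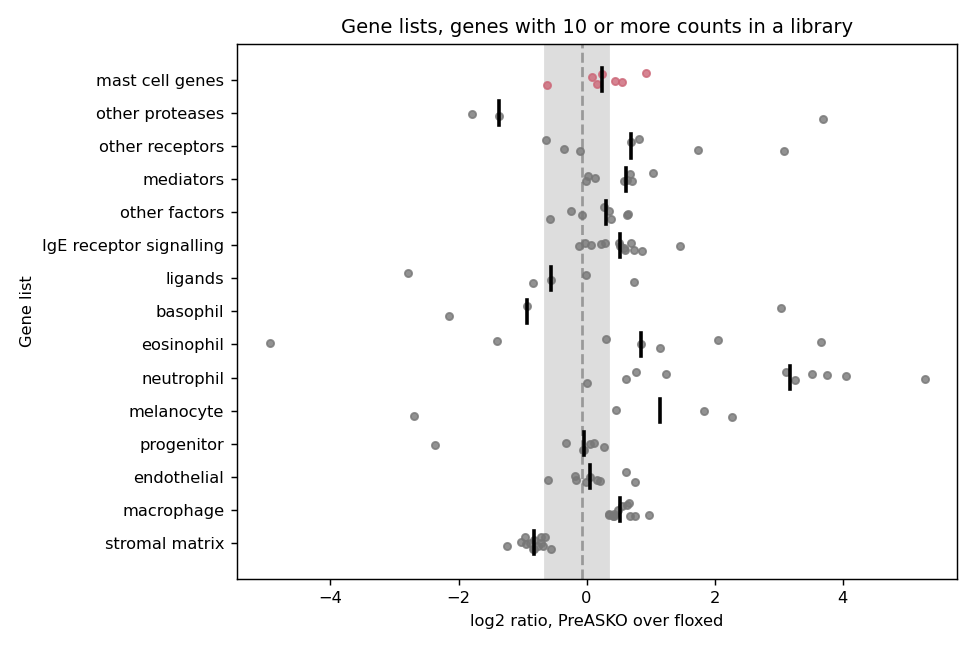
Log2 ratio of PreASKO over floxed for each gene with 10 or more counts in a library, by gene list (points), with list medians (black bars) and the median (dashed line) and interquartile range (grey band) of all 18911 genes. Mast cell genes run from -0.62 to 0.93, while neutrophil markers reach 5.28. The mast cell median of 0.24 is -0.34 when scaled to the macrophage list, where the median of all genes is -0.65.

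Eosinophil markers, of another granulocyte with its own granule proteins, were higher in 5 and lower in 2 of 7, beside 45.8% of all genes higher. Their sums were 55.5 and 128 CPM, and their median log2 ratio of 0.85 was -0.59 in repeat-distributed counts alone. Ear2, Prg3 and Ear1 had the most counts, with ratios of 2.20, 4.13 and 1.81. Ear2 alone held 45.4 CPM of the floxed and 100 CPM of the PreASKO sum. The 2 lower markers were Il5ra, with 40 counts in floxed and 1 in PreASKO cells, and Siglecf, with 17 and 5. With 2 libraries, likeness to the mast cell genes reduces to a similar ratio. The 5 genes outside all lists with 200 or more counts nearest to the mast cell median were Hist1h2al, Zfp1, Mpnd, Fam65a and Slc35b2, each with a ratio of 1.18. Of 10222 such genes 810 lay within 0.05 of that median on the log2 scale, and 64.2% of all 18911 genes lay within the range of the 7 mast cell genes.

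**Figure D5:**
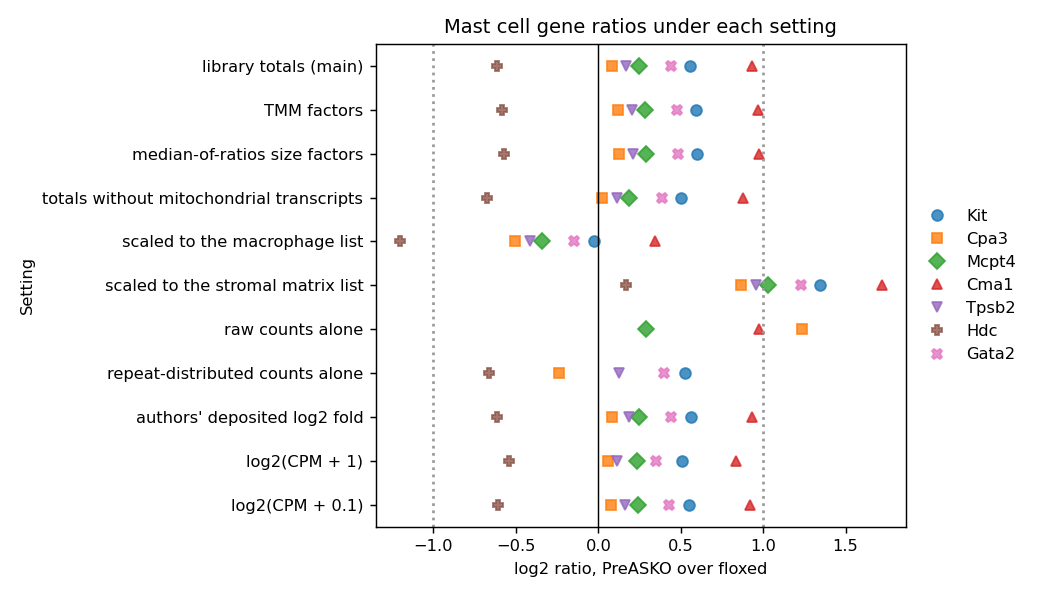
Log2 ratio of PreASKO over floxed for the 7 mast cell genes with 10 or more counts, under library totals and 10 other settings, with dotted lines at 2-fold. Scaling to the macrophage list moves all genes down and places all but Cma1 below 0. Scaling to the stromal matrix list moves all genes up and places all above 0. Hdc is the lowest wherever it has counts.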

How the data were processed

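Polyadenylated RNA of GFP+ cells from the inguinal stromal vascular fraction was sequenced in 1 pooled library per genotype. Per the labels' protocols, tissue was digested with collagenase, cells were stained for PDGFRa and RNA was extracted with a Trizol reagent; how the stain was used for these libraries is not stated there. The authors deposited raw counts and repeat-distributed, estimated counts per gene and library, with a fold ratio and its log2, per the file headers. The submitters' processing notes name the build mm10. Which aligner and counter were used is not given in the sources used here. Repeat-distributed values, 99.5% of which lie within 0.01 of a whole number, were read as reads shared among annotated sequences, an inference. Mcpt4 and Cma1 have 1 RefSeq transcript each and had raw counts alone. The other listed mast cell genes have 2 to 5, and most or all of their counts were repeat-distributed. Of these, Kit, Cpa3, Tpsb2, Fcer1a and Gata2 share no 50-base word with another gene. Whether such reads are shared among transcripts of the same gene was not tested. Repeat-distributed values are also large in number. These values made up 49.1% of floxed and 50.6% of PreASKO counts, which can move genes counted mostly that way.

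Both counts were summed, rounded and scaled to library totals. Ratios carry exact conditional intervals and levels exact Poisson intervals at 95%; no p-value was computed with 1 library per group. Counts of 0 were replaced by 3 for bounds. Counts per list used genes with 10 or more counts in a library. Other settings were TMM factors (edgeR 4.0.16), size factors (DESeq2 1.42.0) under R 4.3.3, totals without mitochondrial transcripts, scaling to marker lists, either count type alone, the authors' fold, pseudocounts of 1 and 0.1 CPM, and other count minimums. Coordinates came from RefSeq, exon lengths and 50-base words from GENCODE M21. The interval calculation was tested on simulated data. Python 3.11.15, scipy 1.17.1 and pandas 2.3.3 were used.

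Members and lists were chosen with earlier results of these data known. Named were all members, list genes whose larger count reached 20, the 3 most counted genes of other cell type lists, Sox9 and the 5 genes nearest in ratio. Mcpt1, Mcpt2, Mcpt9, Cma2, Gzmb, Gzmc, Mcpt8, Prss34, Mrgprb2, Tph1, Tyrp1, Oca2, Mlana, Mpo, Camp, Ngp, Tek, Kdr, Emcn, Il5ra and Siglecf were named after their values were seen. Some list members are not reported here.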

Additional observations from a re-analysis of the deposited data

How the results depend on the processing

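No paired analysis was possible because each genotype has 1 library, and no replicate could be left out. Scaled to the macrophage list, which lowered the median of all genes by 0.59 on the log2 scale (a shift of -0.59), the summed ratio of the mast cell genes was 0.824, their median log2 ratio -0.34 and the number higher 1 of 7. Single ratios were then 0.980 for Kit, 0.789 for Mcpt4 and 0.904 for Gata2. List medians of signalling, factor, endothelial and macrophage genes were -0.069, -0.27, -0.53 and -0.066. Scaled to the stromal matrix list (a shift of 0.79) the summed ratio was 2.13, the median 1.03, 4 of 7 were over 2-fold higher, Hdc was at 1.13 and the ligand median 0.23. Raw counts alone kept 3 of the 7, all 3 higher and 1 over 2-fold, Cpa3, with a summed ratio of 1.43 and a median of 0.97; factor and endothelial medians were -0.051 and -0.59. Repeat-distributed counts alone kept 5, 3 of them higher, with a summed ratio of 1.06; medians were -0.20 for receptors, 0.41 for basophils and -0.59 for eosinophils. Without mitochondrial transcripts in the totals the endothelial median was -0.00085. Without a count minimum 1 gene, Fcer1a, was over 2-fold higher. The sum had a ratio of 1.34 without Kit, Gata2 and Hdc and, chosen after seeing the data, 1.37 without Hdc. The causes of these moves were not tested. TMM, size factors, the authors' fold and both pseudocounts left each of the 7 genes on its side of equal levels. Fcer1a and Ms4a2 were below the count minimum at this depth.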
